A study of Mus musculus with 16 samples.

Results

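The genes described here are 9 components of extracellular proteolysis that act at or near the cell surface: Plaur, Plau, Plat, Serpine2, Mmp14, Mmp15, Timp2, Timp3 and St14. They were taken by gene name from the count table, in which all 9 were found once among 54532 genes, and all 9 passed the filter on low counts in every comparison. The values come from differentiated jejunal enteroids, which are epithelial cultures grown from isolated crypts of adult mice, and from 16 cultures in 4 groups of 4. MYO5B is a motor protein that carries recycling vesicles to the apical membrane of the enterocyte, and its loss causes microvillus inclusion disease. The question behind these cultures was what the epithelium itself does when MYO5B is inactivated, and how an agonist of the lysophosphatidic acid receptor LPAR5 acts on it.

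The MYO5BΔIEC group (MYO5B induced KO) was Vil-CreERT2;Myo5b-flox/flox and received the vehicle PBS. The MYO5B(G519R) group was Vil-CreERT2;Myo5b-flox/G519R, so that it kept 1 allele with the point mutation after recombination. Both received 4-OH-tamoxifen at 1 µM for 24 hours in culture, which activates CreERT2, and Vil1 drives that recombinase in the intestinal epithelium. The fourth group was MYO5BΔIEC enteroids given the LPAR5 agonist Compound-1 at 100 nM for 2 days of differentiation. In all groups the differentiation medium withdrew Wnt ligands and EGF. The control group carries only the genotype label Control and the treatment label None. The study's methods derive its cultures from the same Cre and flox cross, while another passage calls the controls healthy littermates, and 4-OH-tamoxifen is named in the labels for the mutant groups alone. A difference from control therefore holds the loss of MYO5B and the exposure to 4-OH-tamoxifen together, and these cannot be told apart. Each group is described as 4 cultures from 4 mice, so the p-values cover the spread between such cultures.

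Plasminogen is a circulating proenzyme that becomes the broad protease plasmin when it is cut by urokinase (uPA, gene Plau) or tissue plasminogen activator (tPA, gene Plat). The urokinase receptor uPAR, gene Plaur, holds uPA at the cell surface, and the serpin protease nexin-1, gene Serpine2, blocks uPA, tPA and thrombin. MT1-MMP and MT2-MMP, genes Mmp14 and Mmp15, are metalloproteinases anchored in the membrane that cut matrix and other surface proteins, and TIMP2 and TIMP3 inhibit them. Matriptase, gene St14, is a transmembrane serine protease of the epithelium that activates prostasin and is required for tight epithelial barriers.

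Promoter sequence is shown for Plaur, whose treated cultures all lay above vehicle, and for the metalloproteinase pair, whose changes differed in size. All treated cultures of Timp2 lay above vehicle as well, and its window is searched below but not printed. The sequences are the 250 bases before the RefSeq start of each gene, build GRCm38.p6, 5′ to 3′ on the strand of the gene. Capitals mark matches, on either strand, to an AP-1 heptamer (TGACTCA or TGAGTCA) or a GC box (GGGCGG or CCGCCC), and neighbouring GC boxes may share bases. The windows lie at chr7:24462233-24462482 (plus strand) for Plaur, chr14:54431348-54431597 (plus strand) for Mmp14 and chr8:95352046-95352295 (plus strand) for Mmp15.
Plaur: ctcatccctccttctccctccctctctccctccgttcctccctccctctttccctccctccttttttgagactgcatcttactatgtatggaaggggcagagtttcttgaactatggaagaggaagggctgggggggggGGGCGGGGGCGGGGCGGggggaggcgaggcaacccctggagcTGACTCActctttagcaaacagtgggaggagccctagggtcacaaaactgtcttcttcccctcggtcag
Mmp14: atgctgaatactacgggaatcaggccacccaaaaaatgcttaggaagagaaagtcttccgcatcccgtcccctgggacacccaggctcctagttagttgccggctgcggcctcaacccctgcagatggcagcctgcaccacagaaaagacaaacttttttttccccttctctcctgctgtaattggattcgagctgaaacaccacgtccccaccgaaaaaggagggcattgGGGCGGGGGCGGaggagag
Mmp15: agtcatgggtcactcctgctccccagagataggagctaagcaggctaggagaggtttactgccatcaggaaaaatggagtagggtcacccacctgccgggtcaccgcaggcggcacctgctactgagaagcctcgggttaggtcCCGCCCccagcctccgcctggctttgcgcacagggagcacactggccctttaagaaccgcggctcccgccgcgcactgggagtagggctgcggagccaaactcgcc

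The Plaur window held 1 AP-1 heptamer, at bases 69 to 63 before the start, and 3 GC boxes. RefSeq windows were matched for 6 of the 9 genes (Plaur, Serpine2, Mmp14, Mmp15, Timp2 and Timp3). Among these 6 only the Plaur window held the AP-1 heptamer, which was found in 4.46% of all 32851 windows of this length. All 6 held a GC box, against 32.7% of all windows. Neither the TEAD hexamer (GGAATG or CATTCC, in 12.6% of windows) nor the CRE octamer (TGACGTCA, in 1.55%) was in any of the 6. These are matches of letters and no evidence of binding.

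The libraries held 27804968 to 40101729 counts, and the ranges of the 4 groups overlapped. Levels are CPM, which are counts relative to the library size, scaled by TMM over the 16 libraries, so they compare 1 gene between cultures. FPKM values, which are also divided by gene length, are used to compare genes. Control culture 1 stood apart: its median correlation with the other controls was 0.971, where the other controls had 0.993 to 0.994, and its summed enterocyte markers were 2371 CPM against 8001 to 10441 CPM. Treated culture 3 had the lowest correlation with its own group among treated cultures (0.979). Control libraries held 6.41% to 10.4% mitochondrially encoded counts and the other groups 3.79% to 6.63%, and summed epithelium markers were 5296 to 6405 CPM in control and 6905 to 12418 CPM in the other groups. The part of these differences in the results was not tested. For the targeted gene Myo5b the control mean was 189 ± 29.9 CPM (SD of 4 cultures). MYO5BΔIEC cultures had 128 ± 31.0 CPM, MYO5B(G519R) cultures 150 ± 17.0 CPM and treated cultures 111 ± 26.8 CPM. By edgeR the log2 fold changes against control were, in this order, −0.55 (adjusted p = 0.0503), −0.33 (adjusted p = 0.109) and −0.77 (adjusted p = 0.0146). Only the last was called at the threshold of 0.05. Reads of Myo5b also come from transcripts that lack the floxed part or carry the point mutation, so its level does not measure the protein.

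Several of these genes are known products of stroma, vessels or leukocytes, and markers of such cells were read beside them. All 8 fibroblast markers (Col1a1, Col1a2, Col3a1, Pdgfra, Dcn, Lum, Thy1, Postn) stayed under 1 CPM in all 16 cultures, 3 of them at 0 throughout. Their summed level ran from 0.233 to 1.13 CPM over the controls and from 0.449 to 1.24 CPM over MYO5BΔIEC cultures. For MYO5B(G519R) it ran from 0.355 to 1.01 CPM and for treated cultures from 0.125 to 0.442 CPM. Single markers moved apart within this sum. Col1a1 was at 0 to 0.160 CPM in control, 0.180 to 0.360 CPM in MYO5BΔIEC and 0.178 to 0.462 CPM in MYO5B(G519R). Col1a2 was at 0 in all controls and at 0.0599 to 0.212 CPM in MYO5BΔIEC. In MYO5B(G519R) edgeR called Col1a1 higher (log2 fold change 2.39, adjusted p = 0.0476) and Postn lower (−2.15, adjusted p = 0.0380). In MYO5BΔIEC no fibroblast marker was called. Of 5 endothelium markers, 4 were under 1 CPM in all cultures, with summed levels of 0.445 to 1.76 CPM in control and 0.269 to 1.50 CPM in the other groups. Of 8 immune markers 5 were under 1 CPM in all cultures, 2 of them at 0 throughout, and Ptprc, the defining marker of leukocytes, had at most 6 counts. The summed immune markers were higher in the mutants without overlap: 3.86 to 5.54 CPM over the controls, 6.08 to 11.4 CPM over MYO5BΔIEC and 5.79 to 6.93 CPM over MYO5B(G519R), with 5.39 to 9.82 CPM over treated cultures. Most of this sum was Cd68, a lysosomal protein of macrophages, at up to 8.75 CPM, and Itgam, at up to 2.97 CPM. Cd68 rose in MYO5BΔIEC (log2 fold change 1.09, adjusted p = 0.0332 by edgeR), while in MYO5B(G519R) its log2 fold change was 0.47 (adjusted p = 0.183). The part of the fibroblast and immune markers in the results was not tested. In bulk RNA, fewer cells of a type and less RNA per cell cannot be told apart.

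The urokinase receptor rose in both MYO5B models. Plaur (chr7:24462484-24475968, plus strand, GRCm38, as are all positions below) was at 21.9, 11.9, 12.5 and 9.30 CPM in control cultures 1 to 4. It was at 26.1, 34.6, 27.6 and 34.0 CPM in MYO5BΔIEC and at 25.0, 22.6, 36.1 and 30.6 CPM in MYO5B(G519R). Every mutant culture lay above every control culture, and the highest control was culture 1. The log2 fold change against control was 1.14 (SE 0.25) in MYO5BΔIEC, with an adjusted p of 0.00784 by edgeR's quasi-likelihood test with Benjamini-Hochberg adjustment over all tested genes, which is the test behind every adjusted p below unless another is named. In MYO5B(G519R) it was 1.04 (SE 0.26, adjusted p = 0.0171). This second call was the less firm: without control culture 2 or 3 or mutant culture 3 the adjusted p became 0.0512 to 0.0541.

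Urokinase itself was scarce. Plau (chr14:20836660-20843385, plus strand) was at 0, 0.432, 0.481 and 0.111 CPM in the control cultures, from 0 to 15 counts. The MYO5BΔIEC cultures had 1.02, 2.34, 2.23 and 1.89 CPM and the MYO5B(G519R) cultures 1.34, 1.18, 3.32 and 0.965 CPM. The groups did not overlap, and the log2 fold changes of 2.85 (SE 0.72, adjusted p = 0.0150) and 2.71 (SE 0.77, adjusted p = 0.0277) passed the threshold, with wide standard errors at these low control counts. For MYO5B(G519R) the adjusted p was 0.0506 to 0.0925 without control culture 4 or mutant culture 1, 2 or 3.

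Tissue plasminogen activator had the higher mean FPKM of the activator genes in every group. Plat (chr8:22757727-22782844, plus strand) was at 13.4, 6.12, 6.95 and 6.93 CPM in the control cultures. The MYO5BΔIEC cultures were at 22.0, 29.2, 32.3 and 15.7 CPM and the MYO5B(G519R) cultures at 20.5, 18.8, 33.2 and 22.7 CPM. The lowest mutant culture was above the highest control culture, which again was culture 1. Plat rose with log2 fold changes of 1.58 (SE 0.30, adjusted p = 0.00441) and 1.51 (SE 0.28, adjusted p = 0.00510), and both calls held without any 1 culture.

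The serpin that opposes both activators was called by edgeR in MYO5BΔIEC and not in MYO5B(G519R). Serpine2 (chr1:79794197-79861180, minus strand) was at 0.125, 0.432, 0.481 and 0.148 CPM in control and at 0.539, 3.99, 3.43 and 2.40 CPM in MYO5BΔIEC. Cultures 2 to 4 were far above control and culture 1 only just above it. In MYO5B(G519R) the levels were 0.657, 0.385, 1.88 and 0.603 CPM, which overlapped control. The log2 fold change was 3.11 (SE 0.64, adjusted p = 0.00652) in MYO5BΔIEC and 1.56 (SE 0.63, adjusted p = 0.0930) in MYO5B(G519R), where DESeq2 gave 0.0423. The test of the difference between the models is given below.

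**Figure D1:**
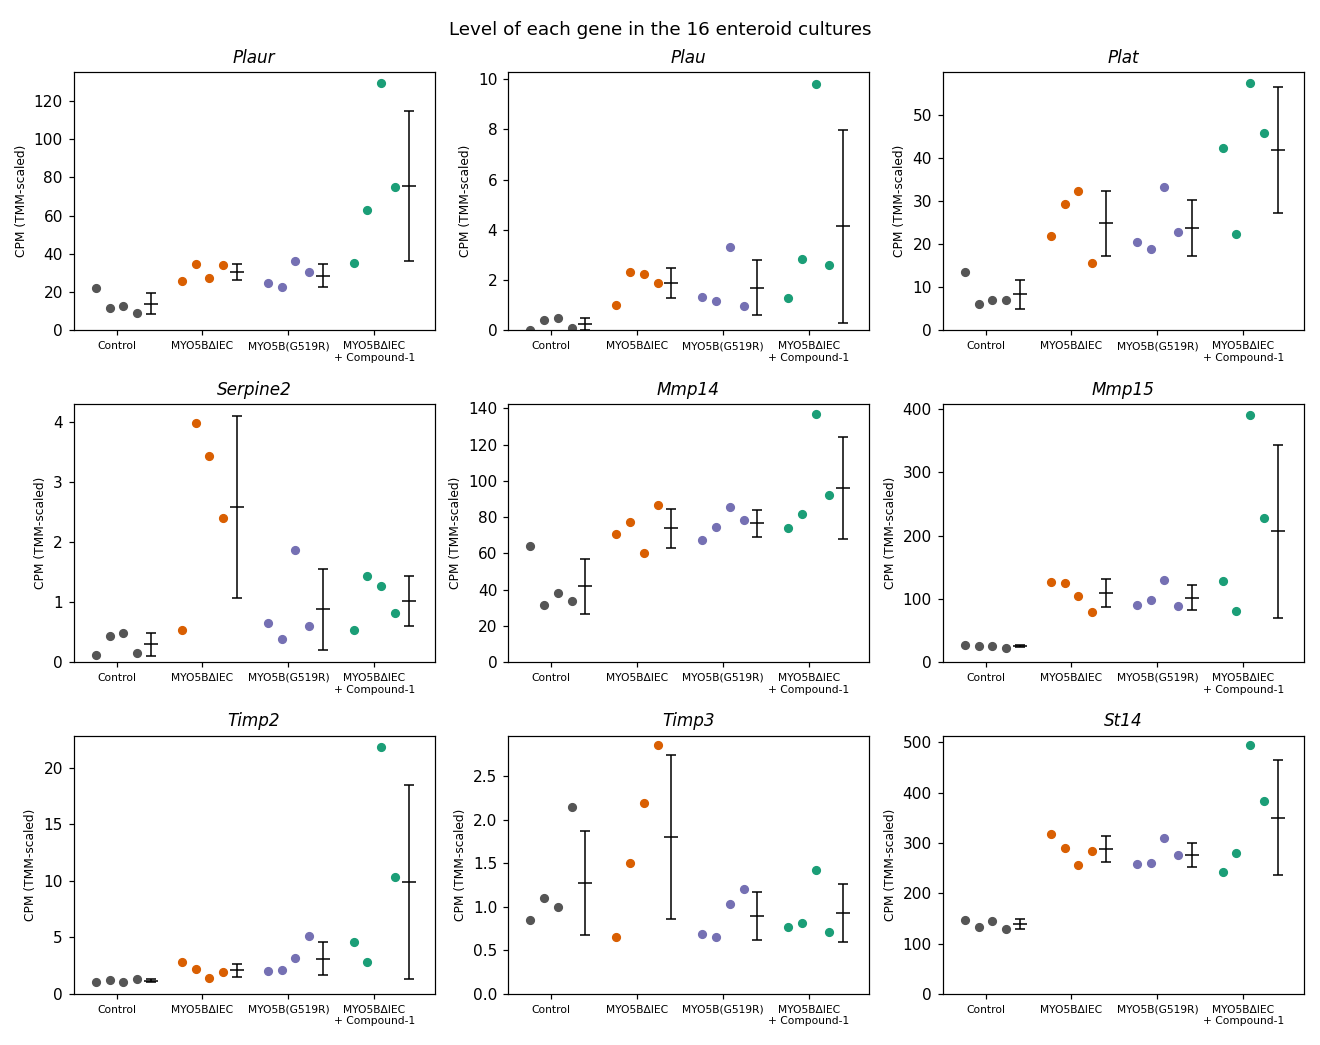
TMM-scaled CPM (y axis, linear from 0, its own range in each panel) of each gene in the 16 cultures, by group on the x axis. Points are cultures in the order 1 to 4 and the black marks are the mean and SD of 4. Plaur, Plau, Plat, Mmp15, Timp2 and St14 have all mutant and treated cultures above all controls. Treated culture 3 is the highest point for Plaur at 129 CPM, Mmp15 at 390 CPM and Timp2 at 21.8 CPM.

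The membrane metalloproteinases moved unequally. Mmp15 (chr8:95352268-95375080, plus strand) was at 27.2, 26.3, 24.9 and 22.8 CPM in control, with St14 the gene of least relative spread there. It was at 126, 126, 105 and 78.7 CPM in MYO5BΔIEC and at 89.7, 97.9, 130 and 89.6 CPM in MYO5B(G519R). The lowest mutant level was well above the highest control level, and Mmp15 rose with log2 fold changes of 2.11 (SE 0.17, adjusted p = 0.00061) and 2.01 (SE 0.15, adjusted p = 0.00073).

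Mmp14 (chr14:54431612-54445364, plus strand) was at 64.1, 31.6, 37.9 and 33.5 CPM in the control cultures. The MYO5BΔIEC cultures were at 70.9, 77.4, 60.4 and 86.5 CPM and the MYO5B(G519R) cultures at 67.3, 74.7, 85.6 and 78.5 CPM. Control culture 1 overlapped MYO5BΔIEC, and the other controls were below every mutant culture. The log2 fold changes were 0.83 (SE 0.23, adjusted p = 0.0209) and 0.87 (SE 0.22, adjusted p = 0.0159). The first of these calls rested on single cultures: it was lost without control culture 2, 3 or 4 or MYO5BΔIEC culture 2 or 4, at adjusted p of 0.0503 to 0.0659. The second was lost without control culture 3 (adjusted p = 0.0515). Without control culture 1 the log2 fold changes of Mmp14 were 1.11 and 1.19.

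Per kilobase of transcript, the order of the pair turned over. The ratio of Mmp15 to Mmp14 in FPKM within a culture was 0.468 to 0.919 for the controls. It was 1.01 to 1.97 for MYO5BΔIEC, 1.26 to 1.68 for MYO5B(G519R) and 1.08 to 3.14 for treated cultures. It was below 1 in all 4 control cultures and above 1 in all 12 others. Control culture 1 had the lowest ratio of all.

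**Figure D2:**
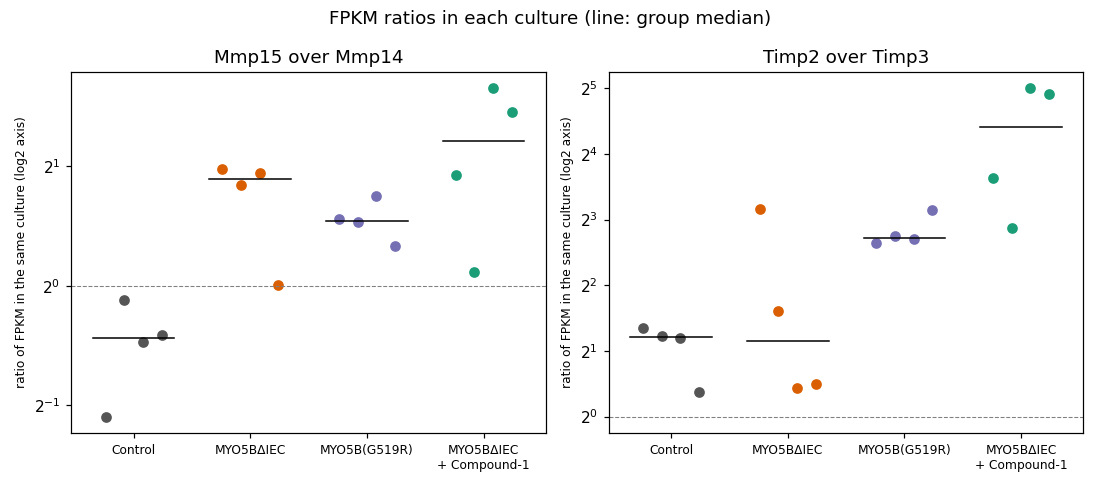
Ratio of 2 genes' FPKM within each culture (y axis, log2 scale), by group on the x axis, with a point for each culture and a line at the group median. For Mmp15 over Mmp14 the control cultures reach at most 0.919 and all others are above 1, while for Timp2 over Timp3 the highest values, 32.0 and 30.3, are in treated cultures 3 and 4.

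The inhibitors of these proteases showed no common pattern. Timp2 (chr11:118301069-118355740, minus strand) was at 1.03, 1.23, 1.09 and 1.33 CPM in the control cultures. The MYO5BΔIEC cultures were at 2.82, 2.19, 1.42 and 1.92 CPM and the MYO5B(G519R) cultures at 2.06, 2.10, 3.21 and 5.13 CPM. Neither mutant group overlapped control, but MYO5BΔIEC culture 3 came close to it. Timp2 rose in MYO5B(G519R) (log2 fold change 1.41, SE 0.33, adjusted p = 0.0125). In MYO5BΔIEC the log2 fold change was 0.84 (SE 0.29) with an adjusted p of 0.0552, which passes with DESeq2 (0.0303) or without MYO5BΔIEC culture 3 (0.0348).

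Timp3 was at 0.846, 1.10, 0.993 and 2.15 CPM in the control cultures. The MYO5BΔIEC cultures were at 0.659, 1.50, 2.19 and 2.85 CPM and the MYO5B(G519R) cultures at 0.687, 0.651, 1.03 and 1.21 CPM. Both mutant groups overlapped control, with log2 fold changes of 0.51 (SE 0.46, adjusted p = 0.451) and −0.50 (SE 0.38, adjusted p = 0.362). In the annotation Timp3 lies wholly inside Syn3 on the opposite strand (chr10:86300372-86349506), and the library protocol describes no step that marks strand, so reads of the pair cannot be told apart by strand. How the counting treated them is not given in the sources used here. Syn3 itself had at most 77 counts in a culture, where Timp3 had 22 to 95 counts. Timp2 spans Cep295nl on its own strand, which had at most 8 counts.

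Matriptase was the highest of the 9 genes per kilobase in every group. St14 (chr9:31089402-31131853, minus strand) was at 148, 132, 146 and 129 CPM in the control cultures. The MYO5BΔIEC cultures were at 319, 290, 256 and 285 CPM and the MYO5B(G519R) cultures at 258, 261, 309 and 277 CPM. The groups were far apart relative to their spread. St14 rose with log2 fold changes of 1.06 (SE 0.13, adjusted p = 0.00142) and 0.99 (SE 0.11, adjusted p = 0.00181), and neither call depended on any 1 culture. The processed pseudogene Gm16071 overlaps 793 bases of St14 on the opposite strand and had at most 182 counts. Its direct partners were expressed as well. Spint1, which encodes the matriptase inhibitor HAI-1, had a control mean of 146 ± 30.6 CPM, against 311 ± 13.4 CPM for MYO5BΔIEC and 244 ± 32.0 CPM for MYO5B(G519R) (SD, n = 4 each). It rose with log2 fold changes of 1.10 (adjusted p = 0.00184) and 0.74 (adjusted p = 0.0101). Spint2, which encodes the related inhibitor HAI-2, had log2 fold changes of 0.33 (adjusted p = 0.201) and 0.35 (adjusted p = 0.137). Prss8, encoding prostasin, had −0.36 (adjusted p = 0.215) and −0.21 (adjusted p = 0.491).

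Over the 9 genes, 7 were called higher and 0 lower in MYO5BΔIEC than in control, where 13.5% of all 17951 tested genes were called higher and 13.8% lower. The count was also 7 higher and 0 lower in MYO5B(G519R), where 13.1% of 17829 genes were called higher and 13.7% lower. The edgeR calls differed at Serpine2, called in MYO5BΔIEC alone, and Timp2, called in MYO5B(G519R) alone. DESeq2 called 8 of the 9 in each model, both of these among them. Over all genes DESeq2 called 5701 in MYO5BΔIEC and 5623 in MYO5B(G519R), against 4910 and 4778 by edgeR. The median log2 fold change of the 9 was 1.14 and 1.41, against −0.01 and −0.05 over all tested genes. Groups that did not overlap, with the mutant higher, were seen for 7 of the 9 genes in each model, against 13% and 13.6% of all tested genes. Leaving out 1 culture at a time left 6 to 8 of the 9 genes called in MYO5BΔIEC and 5 to 7 in MYO5B(G519R). Over all genes these fits called 2963 to 7474 and 2880 to 8146. The 9 genes were chosen with earlier results of these data known, so their counts and medians beside all genes, here and below, are a description only. Both comparisons use the same 4 control cultures. Control culture 1 was the highest control for 5 of the 9 genes, where it was the highest for 38.1% of all genes. Without it 7 of the 9 genes were called in each model, while the calls over all genes rose to 7474 and 8146.

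The models were compared directly. None of the 9 genes was called between MYO5B(G519R) and MYO5BΔIEC by edgeR, where 1 gene of 17943 was called (0.00557%), and DESeq2 also called 0 of the 9. An unadjusted p under 0.05 was found for 2 of the 9 genes and 4.3% of all genes, and no gene of the 9 had groups that did not overlap with MYO5B(G519R) the higher (0.83% of all genes). The 2 were Serpine2, with a log2 difference of −1.55 (SE 0.60, 95% interval −2.87 to −0.22, adjusted p = 0.838), and Timp3, with −1.004 (SE 0.42, 95% interval −1.94 to −0.07, adjusted p = 0.838), both lower in MYO5B(G519R). Timp2 had a log2 difference of 0.58 (95% interval −0.16 to 1.32). For Plaur, Mmp14, Mmp15 and St14 the estimates lay between −0.10 and 0.05, with 95% intervals within −0.48 and 0.33. For Plau it was −0.13 (95% interval −1.05 to 0.79) and for Plat −0.06 (−0.59 to 0.47). The ratio of Timp2 to Timp3 in FPKM was 6.27 to 8.88 in MYO5B(G519R) and 1.35 to 8.93 in MYO5BΔIEC, against 1.30 to 2.55 in control. The MYO5BΔIEC cultures overlapped both of these groups, which did not overlap each other.

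With Compound-1, Plaur and Timp2 stood highest above vehicle, and by edgeR no gene of the 9 passed the threshold. Plaur was at 35.3, 62.9, 129 and 74.9 CPM in treated MYO5BΔIEC cultures 1 to 4. Timp2 was at 4.56, 2.85, 21.8 and 10.3 CPM. All treated cultures were above all vehicle cultures for both genes, treated culture 3 by the most. Treated culture 1 for Plaur and treated culture 2 for Timp2 were just above the highest vehicle level. The log2 fold change of Plaur was 1.27 (SE 0.31, 95% interval 0.59 to 1.95) with an adjusted p of 0.532, and that of Timp2 was 2.21 (SE 0.54, 95% interval 1.01 to 3.40) with an adjusted p of 0.532. Without treated culture 3 these were 0.89 and 1.47.

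By edgeR, 0 of the 9 genes and 0 of 18037 genes (0%) were called, while 6 of the 9 and 1355 of all genes (7.51%) had an unadjusted p under 0.05. DESeq2 called 1 of the 9, Plaur (adjusted p = 0.0209), and 100 genes in all. With DESeq2 that call was lost without treated culture 3 (adjusted p = 0.268) or 4 (0.103), and without vehicle culture 1, 2 or 3 (0.0595 to 0.293). Leaving out a culture also gave DESeq2 calls that all 8 cultures did not. Timp2, at an adjusted p of 0.0809 with all cultures, was called higher without treated culture 1 (0.000293), 2 (4.27e-06) or 4 (0.0495) or vehicle culture 1 (0.00749). Plat (0.0239) and Mmp15 (0.0201) were called higher without treated culture 2, and Serpine2 lower without vehicle culture 1 (0.0165). Groups that did not overlap, treated higher, were found for 2 of the 9 genes, Plaur and Timp2, and for 1.59% of all genes.

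The other plasminogen genes overlapped with vehicle. Plau was at 1.31, 2.85, 9.79 and 2.60 CPM in the treated cultures (log2 fold change 1.11, 95% interval −0.08 to 2.31) and without treated culture 3 the estimate was 0.24. Plat was at 42.2, 22.3, 57.3 and 45.6 CPM (0.72, 95% interval 0.09 to 1.35). Serpine2 was at 0.536, 1.44, 1.28 and 0.827 CPM, with an estimate below vehicle (−1.37, 95% interval −2.55 to −0.19). The receptor and both activators had estimates above vehicle and their serpin one below, none of them called by edgeR.

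Among the membrane proteases, Mmp15 was at 128, 80.5, 390 and 229 CPM in treated cultures (log2 fold change 0.89, 95% interval 0.03 to 1.74), Mmp14 at 73.9, 82.0, 137 and 92.2 CPM (0.35, −0.07 to 0.77) and St14 at 243, 280, 496 and 384 CPM (0.25, −0.20 to 0.71). Treated culture 3 was the highest of the treated cultures for all of these, and without it the estimates were 0.38, 0.14 and 0.04. Timp3 was at 0.771, 0.814, 1.42 and 0.713 CPM (−0.97, 95% interval −1.95 to −0.00). Treated culture 3 was the highest treated culture for 8 of the 9 genes, where it was for 30.4% of all genes, and the highest of all 16 for 7 of the 9, where it was for 17.2% of all genes.

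**Figure D3:**
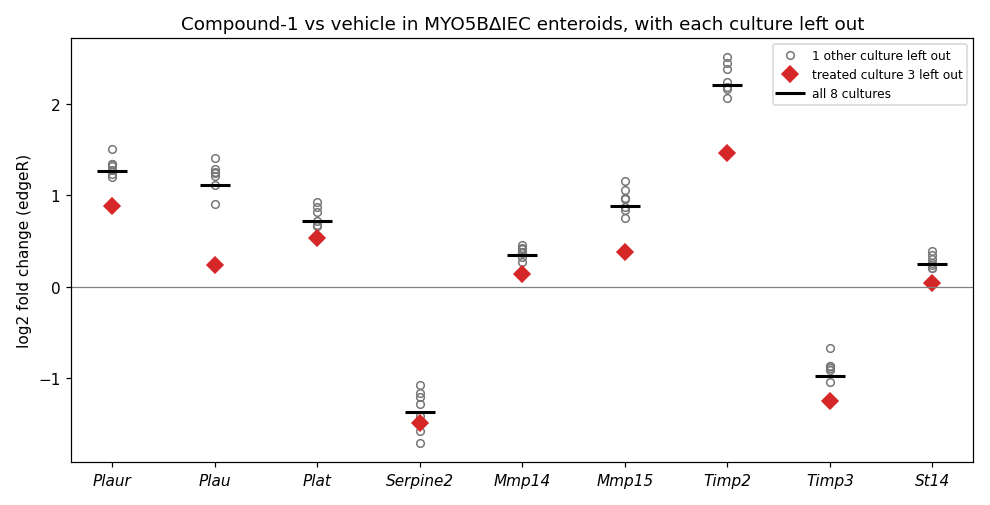
log2 fold change of Compound-1 against vehicle in MYO5BΔIEC enteroids (y axis, edgeR) for the 9 genes on the x axis, from all 8 cultures (black line), with treated culture 3 left out (red diamond) and with each other culture left out (grey circles). The red diamond is the value nearest to 0 for Plaur, at 0.89, for Plau, at 0.24, and for Timp2, at 1.47, and no gene changes sign.

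Against control, the treated MYO5BΔIEC cultures had 8 of the 9 genes called higher and 0 lower, where 15.7% of 17937 genes were called higher and 13.7% lower. The log2 fold changes were 2.44 (SE 0.39, adjusted p = 0.00415) for Plaur, 3.99 (SE 0.88, adjusted p = 0.00930) for Plau, 2.32 (SE 0.33, adjusted p = 0.00398) for Plat and 3.03 (SE 0.42, adjusted p = 0.00398) for Mmp15. Timp2 rose by a log2 fold change of 3.08 (SE 0.57, adjusted p = 0.00579), Mmp14 by 1.20 (adjusted p = 0.00949), St14 by 1.34 (adjusted p = 0.00438) and Serpine2 by 1.77 (SE 0.55, adjusted p = 0.0342). The Serpine2 call was lost without control culture 2 or 4 or treated culture 2, 3 or 4. Timp3 had a log2 fold change of −0.44 (adjusted p = 0.447). Of the 9 genes 8 had all treated cultures above all controls, against 14.3% of all genes, and without treated culture 3 the called genes were 7. None of this comparison separates Compound-1 from the loss of MYO5B, and it shares the control cultures with the comparisons above.

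**Figure D4:**
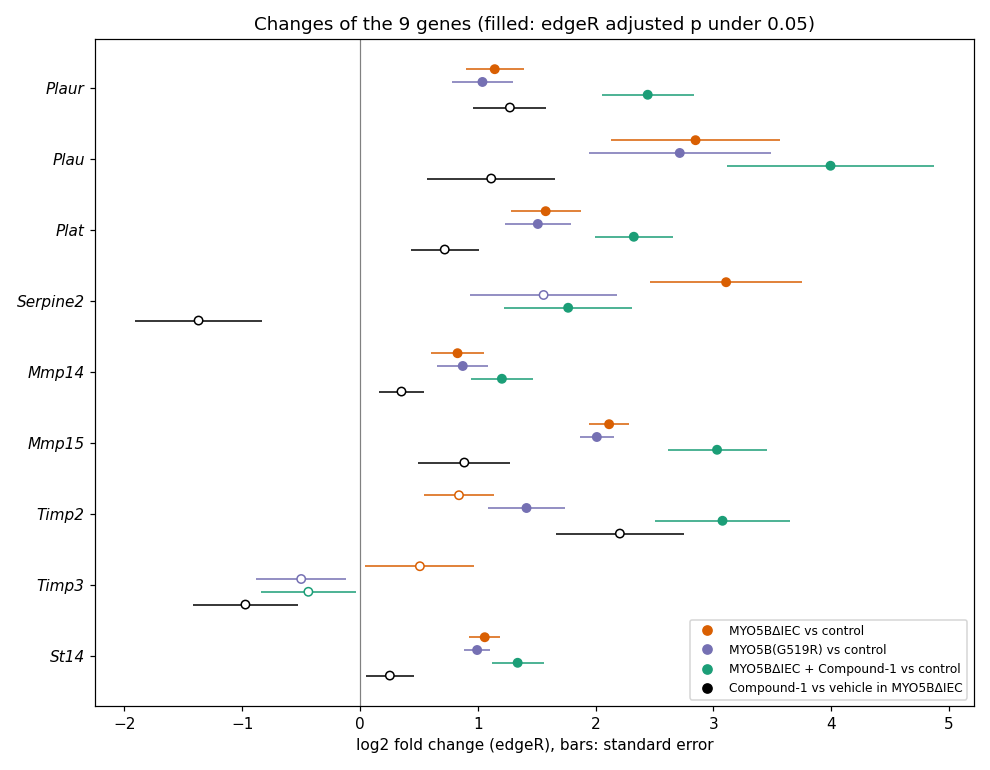
log2 fold change (x axis, edgeR, bars are standard errors) of each of the 9 genes (y axis) in 4 comparisons, filled where the adjusted p is under 0.05. For MYO5BΔIEC and for MYO5B(G519R) against control, Mmp15 has the narrowest bar of the genes above 2. Timp3 is open in all comparisons, and all black points, for Compound-1 against vehicle, are open.

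Per kilobase, the 9 genes spanned a wide range of levels, in FPKM. In control St14 was highest at a mean of 17.7 FPKM, followed by Mmp14 at 6.85, Plaur at 5.19, Mmp15 at 4.57 and Plat at 1.31. Timp2 at 0.293, Timp3 at 0.151, Plau at 0.105 and Serpine2 at 0.0348 were below 1. Mmp14 and Plaur, Plaur and Mmp15, Timp3 and Plau, and Plau and Serpine2 overlapped between cultures. In both mutant groups Mmp15 moved to second place, at 20.1 FPKM in MYO5BΔIEC and 18.8 in MYO5B(G519R), and did not overlap Mmp14, at 12.3 and 12.8. In MYO5BΔIEC the gap was narrow: culture 4 had the lowest Mmp15, at 14.35 FPKM, and the highest Mmp14, at 14.26 FPKM. With Compound-1 St14 at 45.4, Mmp15 at 38.0 and Plaur at 28.6 FPKM overlapped with their neighbours.

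RNA for the substrate of the activators was nearly absent, and plasminogen protein was not measured. Plg, encoding plasminogen, which is made mainly by the liver, had at most 4 counts in any culture. Mmp2, whose proenzyme MT1-MMP activates, had at most 1 count. Serpinb2, encoding PAI-2, had 0 counts in all 16 cultures, which at 3 counts allows at most 0.111 CPM, and this covers counting error only. Timp1 was at 0.119 to 0.162 CPM on average in each group.

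Of 19 other genes of the plasminogen system, 11 were tested in MYO5BΔIEC, with 3 higher and 1 lower, and 11 in MYO5B(G519R), with 3 higher and 3 lower. Their median log2 fold changes were −0.09 and −0.25. Over all tested genes, 13.5% were called higher and 13.8% lower in MYO5BΔIEC, and 13.1% and 13.7% in MYO5B(G519R). Lrp1, the endocytic receptor that clears complexes of activator and serpin, rose by 1.80 (adjusted p = 0.00168) and 1.55 (adjusted p = 0.00192), and Igf2r, the mannose 6-phosphate receptor, which also binds uPAR, by 1.50 (adjusted p = 0.00166) and 1.26 (adjusted p = 0.00320). Tfpi was called lower in both models, at −1.37 (adjusted p = 0.00207) and −1.30 (adjusted p = 0.00312). Serpini1 (−1.23, adjusted p = 0.00454) and Tfpi2 (−1.19, adjusted p = 0.00456) were called lower by edgeR in MYO5B(G519R) alone. In MYO5BΔIEC Serpini1 had −0.73 (adjusted p = 0.0992, by DESeq2 0.0797). Tfpi2 had −0.90 there (adjusted p = 0.0513), and DESeq2 called it (adjusted p = 0.0209). Of 19 membrane serine proteases and their inhibitors, 5 of 12 tested were higher in MYO5BΔIEC and 4 of 11 in MYO5B(G519R), with 0 lower in either. Besides Spint1, Hgfac, the activator of hepatocyte growth factor, rose by 1.43 (adjusted p = 0.00858) and 1.03 (adjusted p = 0.0468). Its MYO5B(G519R) cultures, at 26.2 to 84.6 CPM, overlapped control, at 22.9 to 44.1 CPM. F2rl1, encoding PAR2, which matriptase can activate, had log2 fold changes of 0.28 (adjusted p = 0.130) and 0.16 (adjusted p = 0.319).

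Of 17 other matrix metalloproteinases, 6 were tested in MYO5BΔIEC and 7 in MYO5B(G519R), with 0 called by edgeR in either direction in both. An unadjusted p under 0.05 was found for 1 gene in each model, and DESeq2 called 1 in MYO5BΔIEC (Mmp23, edgeR log2 fold change 0.77, DESeq2 adjusted p = 0.0303) and 0 in MYO5B(G519R). Of 13 ADAM and ADAMTS proteases, 3 of 8 tested rose in MYO5BΔIEC and 4 of 9 in MYO5B(G519R), with 0 lower. Of all tested genes 13.5% and 13.1% were called higher in these models, and 13.8% and 13.7% lower. Adam8, a sheddase, had a control mean of 2.28 ± 0.505 CPM, against 8.25 ± 3.34 CPM for MYO5BΔIEC and 6.82 ± 3.01 CPM for MYO5B(G519R). It rose by 1.86 (adjusted p = 0.00274) and 1.58 (adjusted p = 0.00678). Adamts15, which cleaves the matrix proteoglycans versican and aggrecan, rose by 1.39 (adjusted p = 0.0111) and 1.25 (adjusted p = 0.0296). Over all 72 genes of these lists, with 4 further inhibitors including Timp1 among them, edgeR called 0 of 41 tested between Compound-1 and vehicle. An unadjusted p under 0.05 was found for 8 of the 41, against 7.51% of all tested genes. DESeq2 called 1, Prss22, encoding a tryptase-like protease (log2 fold change 2.05, edgeR adjusted p = 0.532, DESeq2 adjusted p = 0.0477). Between the models 0 of 38 were called by either tool, and 2 had an unadjusted p under 0.05, against 4.3% of all tested genes. Treated cultures against control had 20 of 39 tested genes higher and 3 lower, where 15.7% of all tested genes were called higher and 13.7% lower.

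The genes whose levels followed Plaur most closely over the 16 cultures, by Pearson correlation of log2(CPM + 1) among 10864 genes with a mean of at least 5 CPM, were Smox (r = 0.979), encoding spermine oxidase, Krt8 (0.977), Krt19 (0.975), Ccdc71l (0.972) and Krt7 (0.971). Of these, 3 encode keratins of simple epithelia. The 16 points share the differences between groups and the same libraries, so these correlations are a description only. Treated culture 3, the highest for Plaur, is 1 of the points.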

How the data were processed

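RNA of 16 cultures was sequenced as poly-A-selected libraries, and groups were taken from the sample labels. Per the labels and methods, the authors aligned reads to GRCm38 with STAR 2.5 and counted reads per gene with HTSeq 0.6.1, and the deposited counts are these. The deposited FPKM were computed by the authors and divide those counts by gene length and by a size for each library. The strand setting of the counting is not given in the sources used here, nor is the handling of reads with several matches.

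The count test was edgeR 4.0.16 (R 4.3.3) with TMM scaling and the quasi-likelihood F test, run on pairs of groups. Genes needed 10 or more counts in 2 or more of 8 libraries, and p-values were adjusted by Benjamini-Hochberg with a threshold of 0.05. Levels are CPM with TMM over 16 libraries (same filter). Intervals are 95% and use the total degrees of freedom of the fit, residual plus prior. Alternatives were DESeq2 1.42.0, other library sizes and filters, a fit of all groups, limma 3.58.1 on log2(FPKM + 1) and log2(FPKM + 0.1), a replicate block, a removed trend on gene length, and each culture left out. The scripts were tested on simulated data.

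The members, the lists and the tests were chosen with earlier results of these data known. One gene of the plasminogen system is not reported here, and the counts over that list leave it out. Named besides the members are direct partners, and up to 2 genes per list with the largest absolute change called with the same sign in both models and at a mean of at least 1 CPM. Genes of the plasminogen system called lower in a model are named as well. The 5 genes most like Plaur were named by correlation. Motifs in promoters are a search of letters only.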

Additional observations from a re-analysis of the deposited data

Results flagged for a closer look

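Of 36 sets of 4 cultures (9 genes in 4 groups), 3 held a culture that lay far from the other 3 by Dixon's criterion, where chance gives about 1 set in 20. Plau was at 3.32 CPM in MYO5B(G519R) culture 3, and the other cultures of the group were at 0.965 to 1.34 CPM. Plat was at 13.4 CPM in control culture 1, and the other controls were at 6.12 to 6.95 CPM. Timp3 was at 1.42 CPM in treated MYO5BΔIEC culture 3, and the other treated cultures were at 0.713 to 0.814 CPM.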

How the results depend on the processing

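For Compound-1 against vehicle, edgeR called 0 genes, DESeq2 100 genes with 1 of the 9 (Plaur), and edgeR with no filter 12 genes. Between the models edgeR called 1 gene, DESeq2 4, edgeR with no filter 2 and limma on log2(FPKM + 1) or log2(FPKM + 0.1) 0. Leaving out 1 culture gave 2963 to 7474 called genes in MYO5BΔIEC against control (4910 with all), 2880 to 8146 in MYO5B(G519R) (4778), 2957 to 7459 in treated cultures against control (5275), 0 for Compound-1 against vehicle and 0 to 2 between the models. The highest of these in the 3 comparisons with control came without control culture 1 (the cause was not tested). Between the models the sign of the log2 difference turned with 1 culture left out for Plat (−0.26 to 0.10), Plau (−0.68 to 0.066) and Mmp14 (−0.023 to 0.13). The other members kept their direction in all alternatives run. Beside the calls named above, the Serpine2 call in treated cultures against control was lost with limma on FPKM and with the trend on gene length removed, and Timp2 in MYO5BΔIEC passed with limma on log2(FPKM + 1). Cultures that share a replicate number did not deviate together in every pair: correlations ran from −0.21 to 0.57, and between the models 3 of 4 correlated best with their own number. With the replicate number as a block, 3647, 3691, 4401, 0 and 1 genes were called in MYO5BΔIEC, MYO5B(G519R) and treated cultures against control, Compound-1 against vehicle and between the models, and 7, 7, 8, 0 and 0 of the 9 genes. Counts in Plau, Serpine2 and the Timp genes are low, which limits their precision. DESeq2 with each culture left out was chosen after seeing the data.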
